A study of Ovis aries with 7 samples.

Results

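NPY, AGRP, GAL and LEPR, genes of 3 hypothalamic feeding peptides and of the receptor for leptin, were followed across the hypothalami of 7 late-gestation sheep fetuses. Their probes were all non-control probes whose gene name in the scanner files, or whose description where the name is an accession, is one of these symbols. These 4 genes, of 967 named genes on the array, had 10 of its 15008 distinct non-control probes, 2 each for NPY, AGRP and GAL and 4 for LEPR. No probe was named GAL in the files, and the 2 GAL probes were found under a locus name whose gene ID RefSeq lists as GAL in the ARS-UI_Ramb_v3.0 assembly. In the hypoxia group (3 fetuses) the ewe inspired gas of low oxygen for 30 min and normal gas for another 30 min. In the control group (4 fetuses of matched age) the ewe stayed at normal oxygen through both periods. All fetuses of both groups carried chronic catheters, and the hypothalamus was taken 60 min after the first period began. RNA of the whole hypothalamus of each fetus went onto 1 Agilent array with 1 colour, Cy3, so that a lower level can mean fewer cells of a type or less RNA per cell, which cannot be told apart.

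NPY and AGRP are made together in neurons of the arcuate nucleus that drive feeding. NPY acts through its own family of receptors, and AGRP blocks the melanocortin receptors that the POMC product alpha-MSH activates. GAL, galanin, is a peptide of several hypothalamic nuclei that also raises food intake and is found in neuroendocrine neurons. LEPR binds leptin, the hormone of fat tissue, and through it leptin lowers NPY and AGRP expression and raises that of POMC in the arcuate nucleus. In sheep the arcuate projections form largely before birth.

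The array sequences below show which stretch of each transcript was read, since the probes of a gene largely overlap and so are not separate measurements of it. They are given 5′ to 3′ as the scanner files list them, with capitals for the bases that 2 probes of a gene share, or, in the last LEPR probe, for a stop codon at its 3′ end. The NPY probes are shown by their first 30 bases of 60.
NPY A_70_P039277: atgTGGTGATGGGAAATGAAACTTGCTCTC
NPY A_70_P039276: TGGTGATGGGAAATGAAACTTGCTCTCCAG
AGRP A_70_P002722: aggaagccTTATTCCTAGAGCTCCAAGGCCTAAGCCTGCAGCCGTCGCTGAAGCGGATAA
AGRP A_70_P002721: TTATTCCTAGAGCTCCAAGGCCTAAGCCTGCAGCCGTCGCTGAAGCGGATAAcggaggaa
GAL A_70_P001472: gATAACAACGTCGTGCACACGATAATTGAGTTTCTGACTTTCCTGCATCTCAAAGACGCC
GAL A_70_P001471: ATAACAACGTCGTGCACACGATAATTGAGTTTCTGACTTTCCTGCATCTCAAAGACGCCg
LEPR A_70_P056812: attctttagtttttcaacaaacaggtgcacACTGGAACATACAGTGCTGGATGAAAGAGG
LEPR A_70_P056811: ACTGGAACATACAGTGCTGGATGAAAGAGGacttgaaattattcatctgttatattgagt
LEPR A_70_P039557: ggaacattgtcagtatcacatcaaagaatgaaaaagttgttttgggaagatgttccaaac
LEPR A_70_P039556: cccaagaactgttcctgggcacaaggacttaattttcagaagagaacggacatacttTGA

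The 2 NPY probes shared 57 bases, the AGRP probes 52 and the GAL probes 59, so each of these genes was read at a single site. LEPR was read at 2 sites. Probes A_70_P056812 and A_70_P056811 shared 30 bases and start at bases 415 and 445 of their design sequence, per the scanner files. Probes A_70_P039557 and A_70_P039556 start at bases 2637 and 2697 and abut. Joined, they give 120 bases whose first reading frame has no stop codon before base 118, while the other frames have one at bases 29 and 90. The leptin receptor exists in a long signalling form and in short forms that differ at their ends, and the files do not say which form this end belongs to. No other probe on the array shared a run of 20 bases with any of the 10 probes.

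None of the 9 tested probes of these genes passed the test between hypoxia and control. A probe was tested where its signal was well above background on at least 3 of the 7 arrays, which held for all but LEPR probe A_70_P039557. In limma with Benjamini-Hochberg adjustment over all 12712 tested probes, 0 of the 9 passed an adjusted p of 0.05, against 2 of all tested probes (0.0157%). At an unadjusted p of 0.05 the count was again 0 of 9, against 1990 of all tested probes (15.7%). Both groups overlapped in each of the 9 probes, while they lay apart in 16.2% of all tested probes. Every hypoxia array lay on slide 1, control replicates 1 and 2 on slide 2, and control replicates 3 and 4 on slide 3, each slide with its own scan time, so slide and group cannot be told apart. Levels below are the log2 processed signal minus the 75th percentile of the non-control spots of that array, so 0 is that percentile, and a level of 1 probe is not comparable with that of another.

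**Figure D1:**
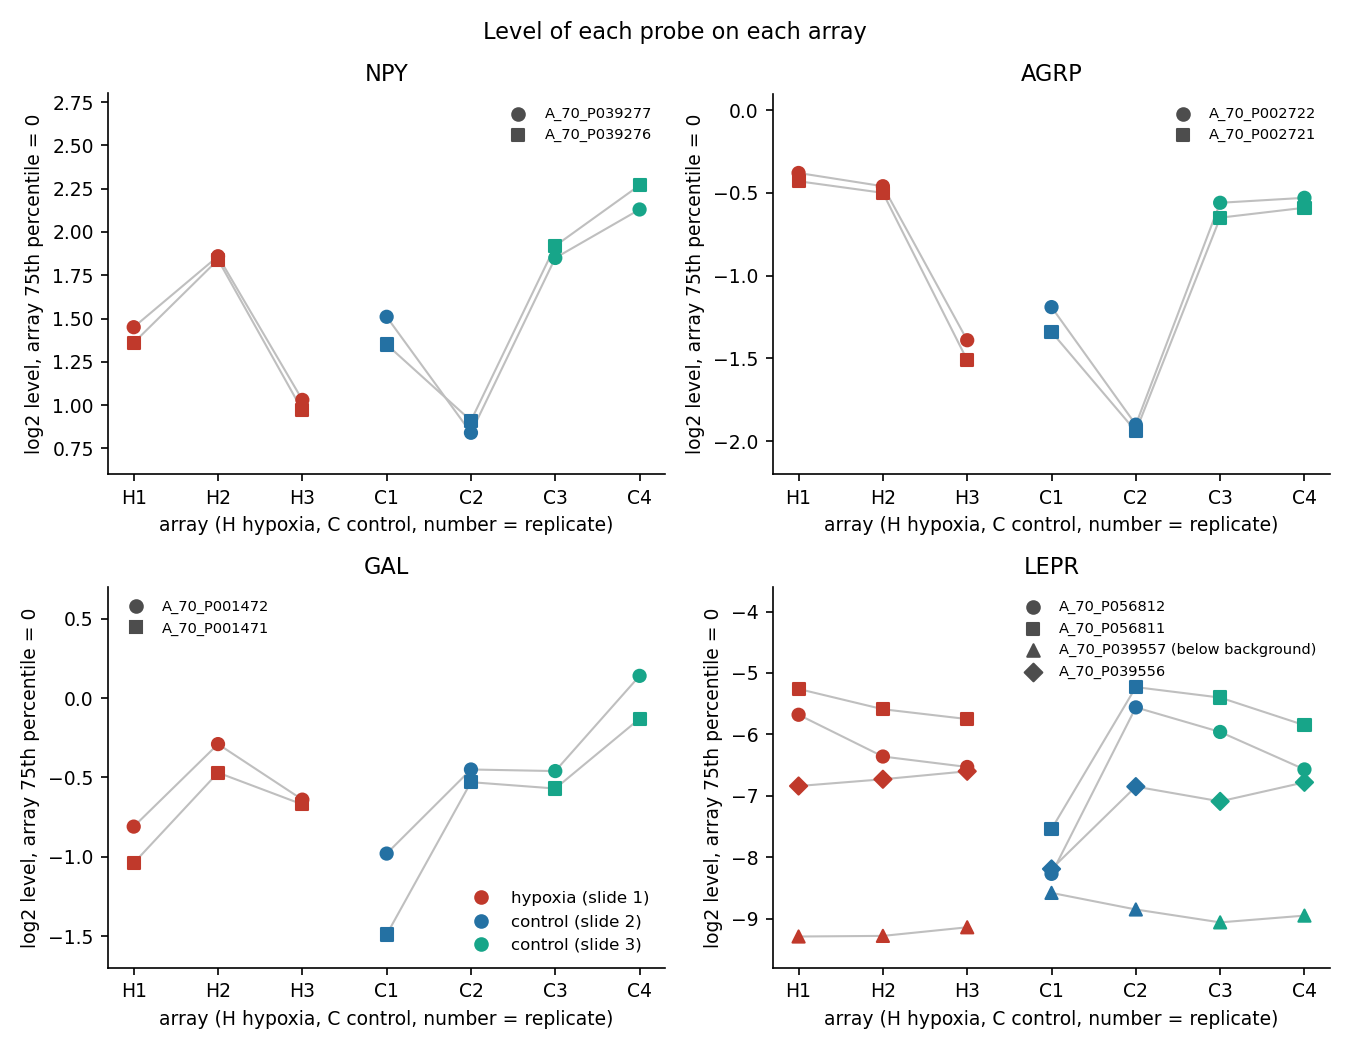
Level of every NPY, AGRP, GAL and LEPR probe on each array (vertical axes: log2 processed signal, with the array's 75th percentile at 0; horizontal axes: array, H for hypoxia and C for control with the replicate number). Points are single arrays, colours are slides and symbols are probes. NPY is lowest on C2 and highest on C4, AGRP is lowest on C2 with H3 and C1 next, and the LEPR probes above background elsewhere are lowest on C1.

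NPY, the orexigenic peptide of arcuate neurons, was well above background on all 7 arrays. Probe A_70_P039277 had levels of 1.45, 1.86 and 1.03 in hypoxia replicates 1 to 3, and of 1.51, 0.84, 1.85 and 2.13 in control replicates 1 to 4. The lowest and the highest of the 7 values were both control arrays, 2.45-fold apart in signal, and the 3 hypoxia arrays lay between them. The mean was 1.45 ± 0.41 (SD, n = 3) after hypoxia and 1.58 ± 0.56 (SD, n = 4) in controls, a log2 difference of -0.13 (SE 0.33, limma adjusted p = 0.867). The 95% confidence interval of -0.89 to 0.62 spans 0.538-fold to 1.54-fold of the control level, so differences in either direction of that size were not excluded. An exact 2-sided permutation test over the 35 splits of the arrays into 3 and 4, whose smallest possible p is 0.0286, gave p = 0.771. Without control replicate 4, the array with the highest NPY, the log2 difference was 0.05, and without hypoxia replicate 3 it was 0.07.

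The second NPY probe, A_70_P039276, shifted by 3 bases, had levels of 1.36, 1.84 and 0.97 in the hypoxia replicates and of 1.35, 0.91, 1.92 and 2.27 in the control replicates. Its pattern over the 7 arrays was close to that of the first (r = 0.98), with the same lowest and highest array. Its log2 difference was -0.22 (SE 0.35, limma adjusted p = 0.782; exact permutation p = 0.657).

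AGRP, the melanocortin antagonist made in the same neurons, was also well above background on all 7 arrays. Probe A_70_P002722 had levels of -0.38, -0.46 and -1.39 in hypoxia replicates 1 to 3, and of -1.19, -1.90, -0.56 and -0.53 in control replicates 1 to 4. Each group held both high and low arrays. Hypoxia replicates 1 and 2 lay near control replicates 3 and 4, and hypoxia replicate 3 lay near control replicate 1. The mean was -0.74 ± 0.56 (SD, n = 3) after hypoxia and -1.04 ± 0.65 (SD, n = 4) in controls, a log2 difference of 0.30 (SE 0.39, limma adjusted p = 0.732). The interval of that difference, -0.61 to 1.22, spans 0.655-fold to 2.32-fold, and the exact permutation test gave p = 0.543. The difference was close to 0, at 0.02, without control replicate 2 and 0.63 without hypoxia replicate 3.

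The second AGRP probe, A_70_P002721, had levels of -0.43, -0.50 and -1.51 in the hypoxia replicates and of -1.34, -1.94, -0.65 and -0.59 in the control replicates. The 2 probes followed each other with r = 0.997 over the arrays, and after removal of each probe's own mean they were at most 0.07 apart on any array. The array-to-array range of AGRP, 2.86-fold and 2.84-fold in the 2 probes, was therefore many times the gap between its probes on 1 array. The second probe's log2 difference between the groups was 0.32 (SE 0.40, limma adjusted p = 0.72; exact permutation p = 0.514).

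GAL, the galanin precursor, was well above background on all 7 arrays. Probe A_70_P001472 had levels of -0.81, -0.29 and -0.64 in the hypoxia replicates, and of -0.98, -0.45, -0.46 and 0.14 in the control replicates. The hypoxia values again lay within the range of the controls, whose replicates 1 and 4 were the lowest and the highest arrays. The mean was -0.58 ± 0.26 (SD, n = 3) against -0.44 ± 0.46 (SD, n = 4), a log2 difference of -0.14 (SE 0.26, limma adjusted p = 0.818; exact permutation p = 0.629). The 95% interval, -0.74 to 0.46 or 0.597-fold to 1.38-fold, was the narrowest of the 9 probes on this scale. Without control replicate 4 the difference was 0.05.

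GAL probe A_70_P001471, shifted by 1 base, had levels of -1.04, -0.47 and -0.67 after hypoxia and of -1.49, -0.53, -0.57 and -0.13 in controls. It correlated with the first GAL probe at r = 0.938, and the 2 centred probes were up to 0.31 apart on an array, although they share 59 of 60 bases. Its log2 difference was -0.05 (SE 0.31, limma adjusted p = 0.956; exact permutation p = 0.857). It was 0.13 without control replicate 4 and 0.11 without hypoxia replicate 1.

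LEPR, the receptor through which leptin acts on these neurons, was dim. Its 2 upstream probes were well above background on 6 of 7 arrays, all but control replicate 1. Probe A_70_P056811 had levels of -5.26, -5.59 and -5.75 in the hypoxia replicates and of -7.54, -5.23, -5.40 and -5.85 in the control replicates. The 6 measured arrays lay between -5.85 and -5.23 with both groups mixed, and the value of control replicate 1, a processed signal of 11.1 where the other arrays had 41.3 to 69.1, was not well above background. The log2 difference was 0.47 (SE 0.53, limma adjusted p = 0.685; exact permutation p = 0.686), and without control replicate 1 it was -0.04.

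LEPR probe A_70_P056812 had levels of -5.68, -6.36 and -6.53 after hypoxia and of -8.27, -5.56, -5.96 and -6.57 in controls. Control replicate 1 was again the array not well above background, and there the scanner software had put a surrogate value in place of the signal. Its log2 difference was 0.40 (SE 0.61, limma adjusted p = 0.778; exact permutation p = 0.714) with control replicate 1 and -0.16 without it. Over the 7 arrays the 2 upstream probes correlated at r = 0.985, a value that includes that array.

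The downstream LEPR probe A_70_P039556, which ends in the stop codon shown above, was printed in 5 spots per array. Its mean levels were -6.84, -6.73 and -6.60 in the hypoxia replicates and -8.19, -6.85, -7.09 and -6.78 in the control replicates. On control replicate 1, 0 of the 5 spots were well above background and 3 held a surrogate. On the other arrays 2 to 5 of the 5 spots were well above background, and the SD over spots within an array ran from 0.22 to 0.44, against 0.52 on control replicate 1. The log2 difference was 0.51 (SE 0.33, 95% interval -0.27 to 1.28, limma adjusted p = 0.475), or 1.42-fold with an interval of 0.832-fold to 2.42-fold, and the exact permutation test gave p = 0.171. Without control replicate 1 it was 0.18.

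**Figure D2:**
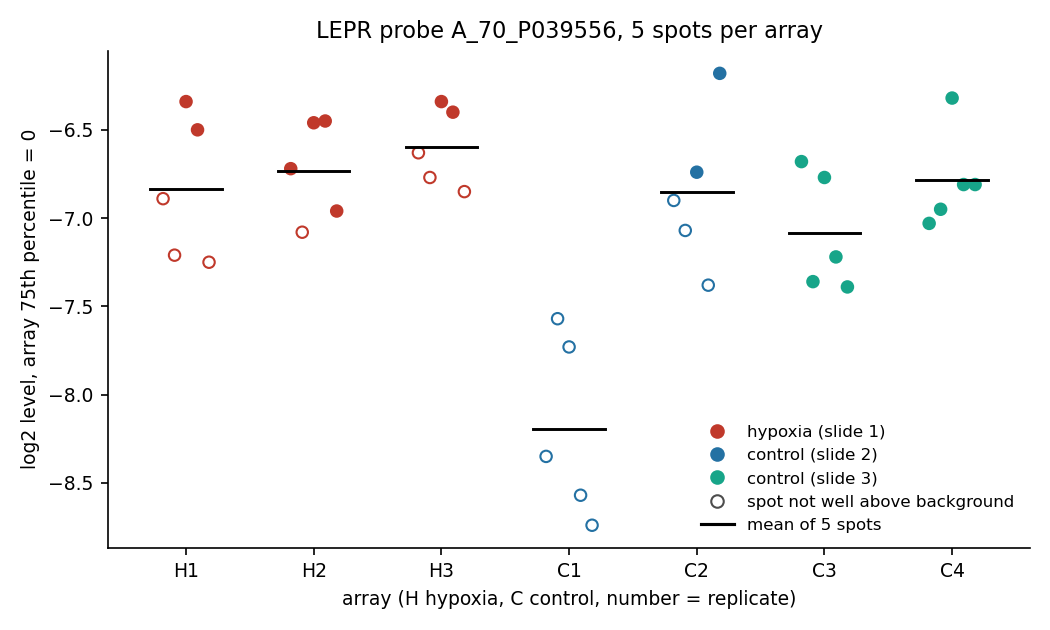
The 5 spots of LEPR probe A_70_P039556 on each array (vertical axis: log2 processed signal with the array's 75th percentile at 0; horizontal axis: array). Filled points are spots well above background, open points are not, colours are slides and bars are the mean of the spots. The spots of C1 are all open, with a mean of -8.19, while the means of the other arrays lie between -7.09 and -6.60.

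The abutting LEPR probe A_70_P039557 was not well above background on any of the 7 arrays, with levels of -9.29, -9.28 and -9.14 after hypoxia and of -8.58, -8.85, -9.06 and -8.95 in controls. These values lay below detection and give no fold. It was printed in 1 spot per array, where its neighbour had 5 and counted as detected with any of them, so their counts of arrays are not directly comparable. On control replicates 3 and 4, however, all 5 spots of the neighbour were well above background, while the 1 spot of A_70_P039557 was not.

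The arrays of 1 group differed more in these genes than in most probes on the array. Among other hypothalamic peptides some varied more than NPY and AGRP and some less. The residual SD within groups in the limma fit was larger than that of 89.5% and 91.1% of all tested probes for NPY, of 93.3% and 93.4% for AGRP, and of 82.5% and 88.4% for GAL. For the LEPR probes the shares were 97.8%, 96.9% and 89.9%, values that include control replicate 1. The median residual SD of all tested probes was 0.20, against 0.50 and 0.54 for NPY and 0.61 and 0.62 for AGRP. In the same fit the SE of the group difference was 0.33 for NPY and 0.39 for AGRP, at the brightest probe of each. It was larger for OXT (oxytocin, 0.85), GHRH (0.71), GNRH1 (0.64), NPVF (0.55) and TAC3 (0.41). For PMCH it was 0.33, and it was smaller for POMC (0.30), SST (0.29) and TAC1 (0.20).

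Part of that spread lay between the control slides. Control replicates 3 and 4, on slide 3, were above control replicates 1 and 2, on slide 2, in all 4 NPY and AGRP probes, with no overlap. Slide 3 lay above slide 2 without overlap in 20.2% of all tested probes. The difference of the slide means was 0.82 and 0.96 for the 2 NPY probes and 1.00 and 1.02 for the AGRP probes, and a difference of at least 0.5 was found in 10.7% of all tested probes. GAL differed by 0.55 and 0.66, with overlap. LEPR probes A_70_P056812, A_70_P056811 and A_70_P039556 differed by 0.65, 0.76 and 0.59, also with overlap. These LEPR values rest on control replicate 1, where none of the 3 probes was well above background, and with normexp background correction they were -0.19, -0.14 and -0.29. The differences between the control slides are given as a description and were not tested, and overlapping probes of a gene count as 1 measurement of it.

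The sign of the hypoxia difference depended on the control slide for the 3 peptides. Against slide 2 alone, the log2 difference was 0.27 and 0.26 for NPY, 0.80 and 0.83 for AGRP and 0.13 and 0.28 for GAL. Against slide 3 alone, it was -0.54 and -0.71 for NPY, -0.20 and -0.19 for AGRP and -0.42 and -0.38 for GAL. Such a change of sign occurred in 6 of the 9 probes, and in 29.8% of all tested probes. The LEPR probes stayed positive, at 0.72, 0.85 and 0.80 against slide 2, which holds control replicate 1, and at 0.08, 0.09 and 0.21 against slide 3. None of the 9 probes passed the adjusted threshold in limma against either slide, where 1.83% (slide 2) and 0.0315% (slide 3) of all tested probes did. The lowest adjusted p of these probes was 0.34, for AGRP probe A_70_P002721 against slide 2.

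**Figure D3:**
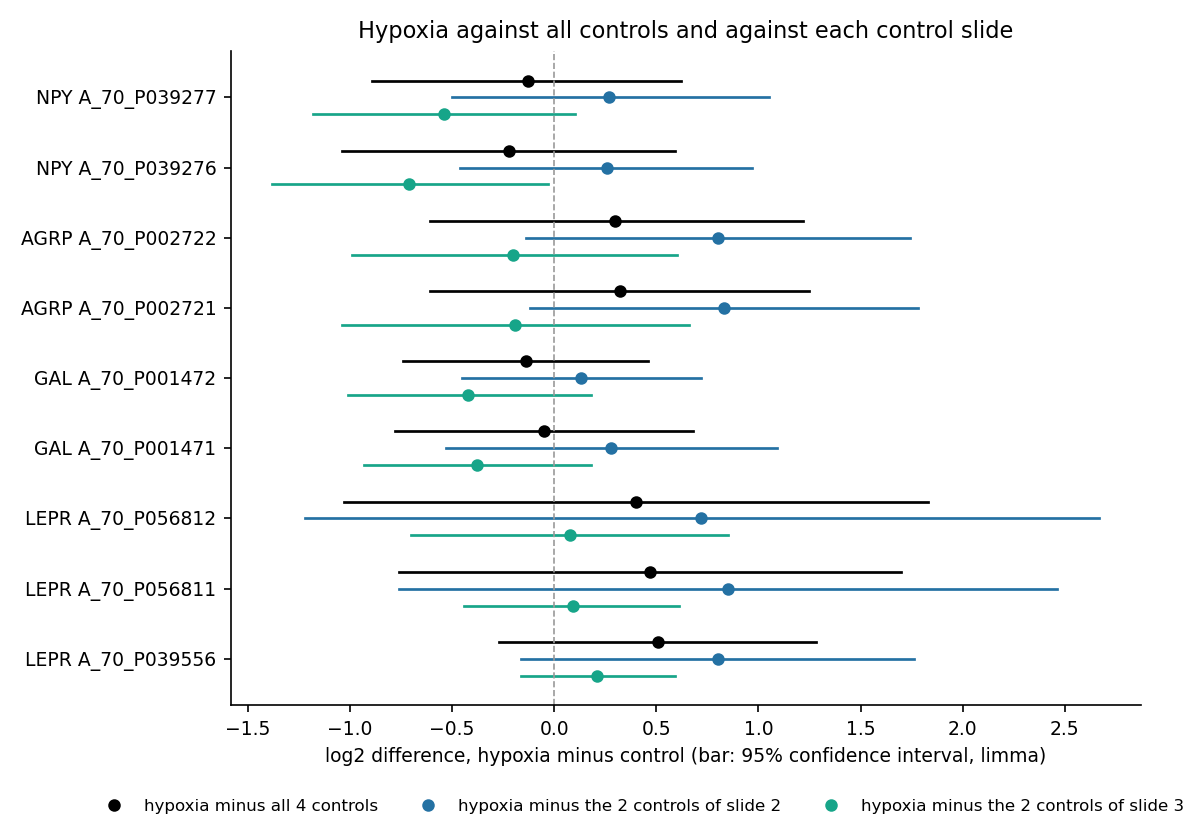
Log2 difference of hypoxia minus control for the 9 tested probes, against all 4 controls, the 2 controls of slide 2 and the 2 controls of slide 3 (horizontal axis: log2 difference; bars: 95% confidence interval in limma, not adjusted for the number of probes). Against all controls every interval includes 0; NPY, AGRP and GAL lie right of 0 against slide 2 and left of 0 against slide 3, where the unadjusted interval of NPY probe A_70_P039276, -1.38 to -0.03, leaves 0 out at an adjusted p of 0.387.

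NPY and AGRP followed each other across fetuses. Over the 7 arrays the brighter probe of each gene gave r = 0.84 (Spearman's rho 0.61), and r = 0.73 without control replicates 2 and 4, the arrays farthest from the median of NPY. POMC, the precursor of the opposing melanocortin peptide, is made in other arcuate neurons. It followed NPY at r = 0.86 (rho 0.82, and r = 0.63 without the same arrays) and AGRP at r = 0.82 (rho 0.82, and r = 0.68 without hypoxia replicate 3 and control replicate 2). POMC itself had levels of 1.37, 1.52 and 1.04 after hypoxia and of 0.90, 0.71, 1.34 and 1.99 in controls, with a log2 difference of 0.08 (SE 0.30, limma adjusted p = 0.925). NPY, AGRP and POMC were thus all lowest on control replicate 2, and NPY and POMC were both highest on control replicate 4. On control replicate 4 the pituitary gene PRL had a level of 1.13, against -5.14 to -3.46 on the other arrays. The part of pituitary tissue in these correlations was not tested. The correlations are descriptions over 7 arrays that share group, slide and scaling, and the groups are too small for a value within each.

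For GAL and LEPR the correlations were lower or depended on the arrays included. NPY and GAL correlated at r = 0.52, and also at 0.52 without control replicates 2 and 4. AGRP and GAL correlated at r = 0.26, and at 0.51 without hypoxia replicate 3 and control replicate 2. GAL and POMC correlated at r = 0.71, but at 0.06 without control replicates 1 and 4, so that value rests on those arrays. LEPR correlated with NPY at r = -0.11, and at 0.14 without control replicates 2 and 4. With AGRP it correlated at r = 0.15, and at 0.98 over the 5 arrays left without hypoxia replicate 3 and control replicate 2. All LEPR values here include control replicate 1, where LEPR was not well above background.

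**Figure D4:**
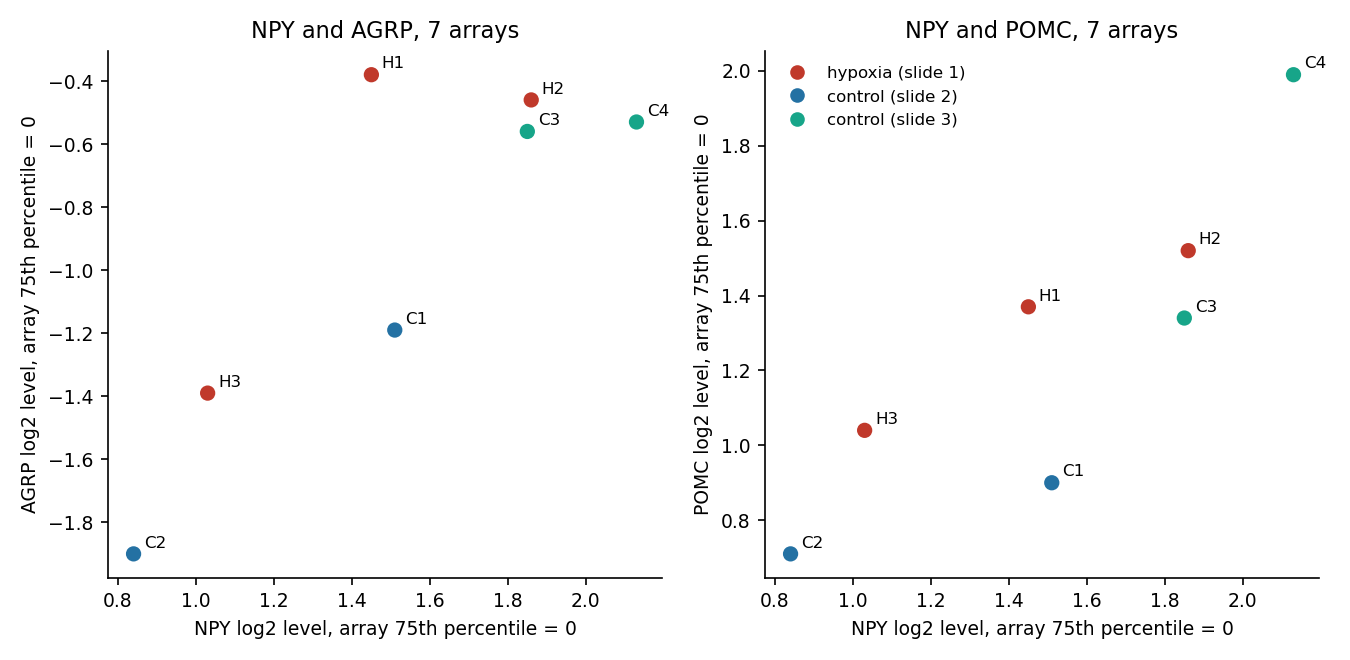
Level of AGRP (left) and POMC (right) against NPY on the 7 arrays (axes: log2 processed signal with the array's 75th percentile at 0; points: arrays, coloured by slide). Both are higher where NPY is higher, at r = 0.84 and r = 0.86, from C2 at the lower left, and hypoxia and control arrays are mixed along the trend.

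Among 840 named and tested genes, taken at 1 probe each, the 3 whose levels over the 7 arrays were most like those of NPY were MET (r = 0.90), ISL1 (r = 0.88) and TNF (r = 0.88). For AGRP they were SST1, a somatostatin receptor per its description (r = 0.88), ISL1 (r = 0.87) and NPY itself (r = 0.84). ISL1, a transcription factor of developing arcuate neurons, was thus near the top for both. GAL was most like YWHAH (r = 0.95), ARL1 (r = 0.94) and ATP5MC2 (r = 0.92), genes of a signalling adaptor, a small GTPase and a subunit of the ATP synthase. LEPR was most like ARNT (r = 0.98), ITGAM (r = 0.95) and CYP24 (r = 0.94), again with the control replicate 1 value included. With 7 arrays and 840 genes, high values of r arise in any ranking of this kind, and they carry no test.

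Receptors for these peptides did not pass the threshold either. NPY1R and NPY2R, which bind NPY, had log2 differences of -0.17 (SE 0.12) and 0.05 (SE 0.21), at limma adjusted p-values of 0.521 and 0.926. A second NPY1R probe gave 0.17, so the sign of that gene depended on the probe. The galanin receptors GALR1 and GALR3 had log2 differences of 0.12 (SE 0.14) and 0.08 (SE 0.10), at limma adjusted p-values of 0.709 and 0.72. The GALR1 value of control replicate 2 was left out as an outlier spot, so that 6 arrays entered its fit. No probe was named MC3R or MC4R, the melanocortin receptors of the brain that AGRP blocks, in the naming used here.

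The wider feeding circuit was read in 5 gene lists, which apart from NPY, AGRP, GAL and LEPR held 26 tested genes. Of these, 12 were higher and 14 lower after hypoxia, with a median log2 difference of -0.03, beside 0.03 over all tested probes, of which 54.7% were higher. None passed the adjusted threshold in limma. Of the 26 genes, 2 had an unadjusted p under 0.05, beside 15.7% of all tested probes. The groups lay apart in 3 of the 26, beside 16.2% of all tested probes. The feeding peptides (6 genes) had a median of 0.07, with 4 higher. UCN, urocortin, which reduces feeding, had a log2 difference of 0.37 (SE 0.16, limma adjusted p = 0.327), with levels of -2.73, -2.14 and -2.69 after hypoxia against -2.97 to -2.81 in controls. Its groups did not overlap, in the brighter of its 2 probes alone. GCG, the precursor of GLP-1, had a log2 difference of 0.37 (adjusted p = 0.474), and ADCYAP1, the precursor of PACAP, of -0.18 (adjusted p = 0.701).

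The feeding receptors (8 genes) had a median of 0.07, with 5 higher. GLP1R, which binds GLP-1, had a log2 difference of 0.36 (SE 0.16, limma adjusted p = 0.339), while its dimmer probe gave -0.03. The leptin and insulin signalling genes (8 genes) had a median of -0.20, with 6 lower. They held both genes under an unadjusted p of 0.05. MTOR, the nutrient-sensing kinase, had levels of 2.52, 2.64 and 2.67 after hypoxia against 2.88 to 3.08 in controls, a log2 difference of -0.33 (SE 0.10, adjusted p = 0.223). CPT1A, which carries fatty acids into mitochondria, had levels of -0.70, -0.81 and -0.29 after hypoxia against -0.27 to 0.01 in controls, a log2 difference of -0.44 (SE 0.15, limma adjusted p = 0.25). The groups lay apart in the MTOR probe, and in the brighter CPT1A probe by a narrow gap (-0.29 against -0.27), while they overlapped in the second CPT1A probe, against 16.2% of all tested probes with groups apart. LEP, leptin itself, had a log2 difference of 0.37 (SE 0.17, limma adjusted p = 0.345) in its brightest probe, and 0.18 and 0.01 in the other two.

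The peptide-processing enzymes PCSK1, which cleaves peptide precursors, and CPE, which trims them, differed by -0.33 (SE 0.16) and -0.03 (SE 0.13) on the log2 scale, with limma adjusted p-values of 0.353 and 0.943. For the transcription factors NR5A1, of the neighbouring ventromedial nucleus, and ISL1 the log2 values were -0.09 (SE 0.69) and 0.03 (SE 0.22), both at a limma adjusted p of 0.965. NR5A1 was well above background on 4 of the 7 arrays. GHRL, ghrelin, was not well above background on any array, and its receptor GHSR on 1 array.

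**Figure D5:**
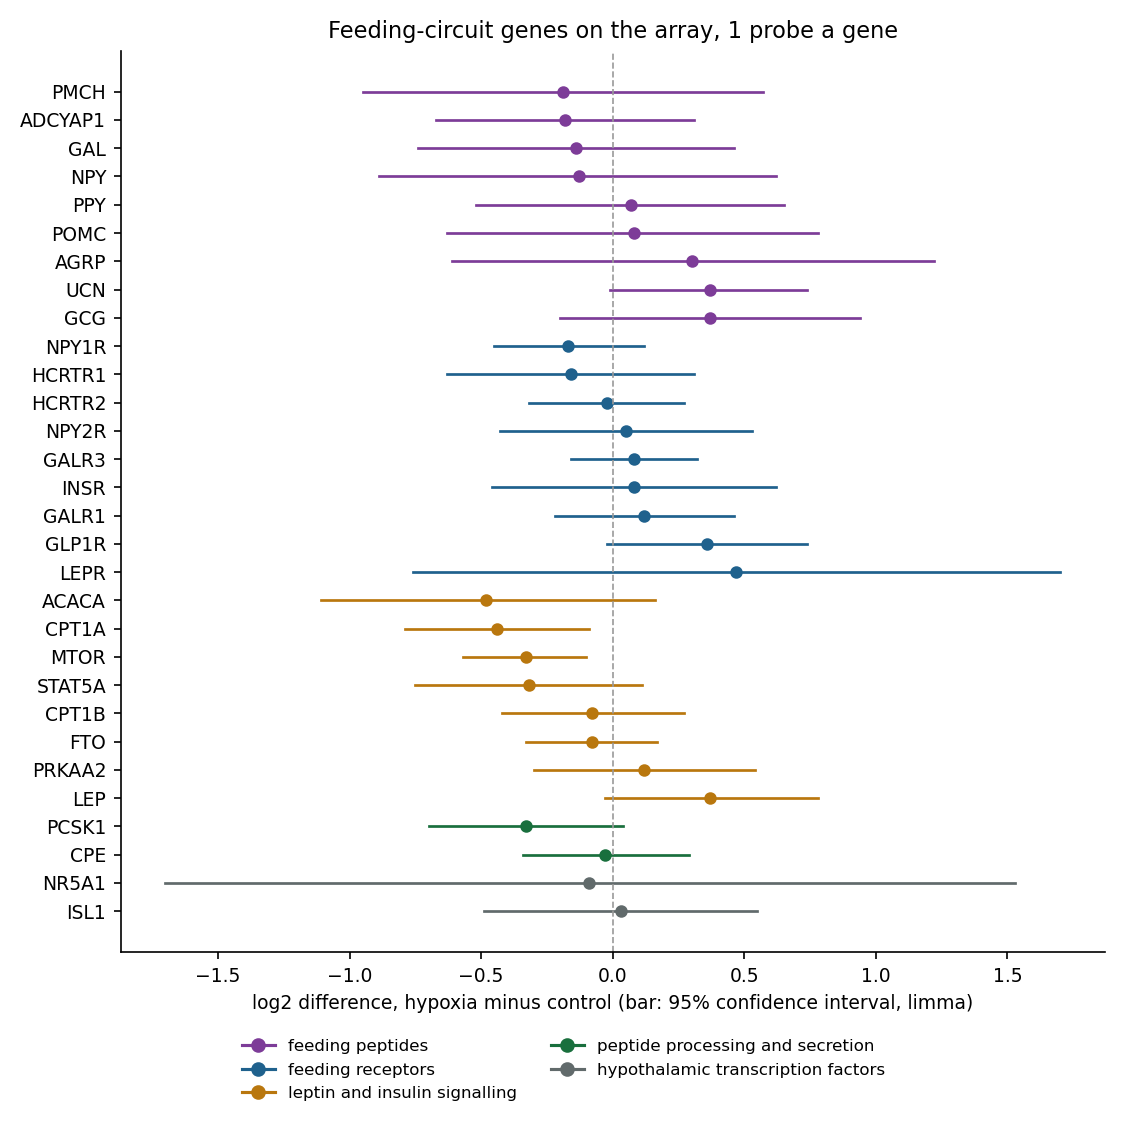
Log2 difference of hypoxia minus control for the tested genes of the 5 feeding-circuit lists, with NPY, AGRP, GAL and LEPR among them, 1 probe a gene (horizontal axis: log2 difference; bars: 95% confidence interval in limma, not adjusted for the number of probes; colours: lists). The points lie on both sides of 0, and the intervals of MTOR and CPT1A alone leave 0 out.

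The tissue label was checked against defining markers. All 9 hypothalamic neuron markers with a probe (OXT, SST, GHRH, PMCH, GNRH1, TAC3, TAC1, NPVF and POMC) were well above background on all 7 arrays. So were 11436 of all 15008 probes, and the markers of thalamus and cortex had no named probe, so this count says little about the tissue. Their mean level ran from -0.68 to -0.37 after hypoxia and from -0.90 to -0.43 in controls. Pituitary genes varied between fetuses. PRL, prolactin, had a level of 1.13 on control replicate 4 against -5.14 to -3.46 elsewhere, and GH was well above background on that array alone, while the pituitary factor POU1F1 was not on any. Other pituitary genes did not follow that array. CGA and TSHB were highest on control replicate 3 (1.39 and -3.16) and lowest on control replicate 2 (-6.47 and -9.09). On control replicate 4 they had -2.50 and -7.03, and LHB, at 2.31, lay within its range of 1.93 to 2.69. TSHB was well above background on 5 of the 7 arrays. The mean level of the 10 pituitary markers ran from -6.08 to -4.97 after hypoxia and from -6.59 to -3.67 in controls, the last on control replicate 4. That array also had the highest NPY, GAL and POMC levels. Without it the log2 differences were 0.05 and -0.01 for NPY, 0.47 and 0.50 for AGRP, and 0.05 and 0.13 for GAL, and the part of pituitary tissue in these levels was not tested. The 5 astrocyte markers with a probe were all higher after hypoxia, beside 54.7% of all tested probes, with a median log2 difference of 0.50. None passed the adjusted threshold in limma, and 2 had an unadjusted p under 0.05, beside 15.7% of all tested probes. Of the red cell markers, HBB had a log2 difference of 0.67, AHSP of -0.33 and CA1 of -0.63, none past the threshold. Their mean level was -1.03 on control replicate 4, the array with the highest NPY, GAL and POMC, and -2.94 to -1.61 on the other arrays. HBB (5.2) and AHSP (-2.47) were highest on control replicate 4. CA1 was not, at -5.83 there against -5.26 on control replicate 1 and -5.56 on hypoxia replicate 2. The part of red cells in the levels of NPY, GAL and POMC was not tested. The endothelial markers (4 genes) had a median of -0.38 and VIM, of ependyma and tanycytes, had -0.49, none past the threshold.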

How the data were processed

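Per the file headers, the authors extracted spot intensity values with Agilent's Feature Extraction software, which subtracts background and replaces signals near it with surrogates. The deposited value table holds log2 of the same processed intensity, equal within 5e-09, with no scaling between arrays. Group and replicate follow each sample's title.

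Levels are log2 processed signal minus the array's 75th percentile over non-control spots (2024 to 2908 across arrays). Outlier spots were left out (34 probe values), and a probe's spots were averaged. The fit took probes with any spot well above background on 3 or more of the 7 arrays, in limma 3.58.1 (R 4.3.3) with Benjamini-Hochberg adjustment over 12712 probes, 2-sided. Of 15008 probes, 13348 were unnamed here; the others were named by the files or by RefSeq accessions and gene IDs. Of a list's genes, those named are the receptors of NPY and GAL and the 3 with the smallest unadjusted p, at the probe with the highest mean level. The members and lists were chosen with earlier results of these data known.

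The fit was tested on simulated data for hypoxia minus control (10 sets, 12712 probes each). It found 23% of 1.5-fold changes, 58% of 2-fold, 88.6% of 4-fold and 95.6% of 8-fold ones, and 4.68% of its calls were false. Each set held changes of these sizes in equal numbers, with normal noise drawn independently for each probe. Many more probes were changed in each set than the 2 called in the real fit. More true changes make the adjusted threshold easier to pass, so the rates may not hold for the real fit. These rates are over all simulated probes. Residual SDs of the tested NPY, AGRP, GAL and LEPR probes ran from 0.39 to 0.97, against a median of 0.2 over all tested probes. How often a change in these genes would be found was not tested. Precision is limited by how few arrays there are. The alternatives tried were scaling, background correction, filters, priors, a slide or replicate block, each control slide alone and leaving out each array. The marker lists of neurons in general and of thalamus and cortex had no named probe.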

Additional observations from a re-analysis of the deposited data

Results flagged for a closer look

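Of 60 sets of 4 control values (the probes of these genes and 1 probe for each list or marker gene), 4 held an array standing apart from the other controls by Dixon's criterion, where chance gives about 3.0. None was a probe of NPY, AGRP, GAL or LEPR. ADCYAP1, the precursor of PACAP, had a level of 4.42 on control replicate 4, where the other controls had 3.61 to 3.68. PRL, prolactin, had 1.13 on the same array against -3.80 to -3.46. MTOR had 3.08 on control replicate 1 against 2.88 to 2.91. NR5A1, a transcription factor of the ventromedial nucleus, had -8.60 on control replicate 1, where it was not well above background, against -6.75 to -6.59.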

How the results depend on the processing

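Of 168 values of the 9 tested probes under the alternatives, 151 kept their sign and side of the threshold and 17 changed sign, and none passed the threshold (lowest limma adjusted p 0.317). Against control slide 2 alone, NPY turned to 0.27 and 0.26 and GAL to 0.13 and 0.28. Against slide 3 alone, AGRP turned to -0.20 and -0.19. With each array left out in turn, the differences ran from -0.38 to 0.07 (A_70_P039277) and -0.46 to -0.01 (A_70_P039276) for NPY, from 0.02 to 0.63 and 0.05 to 0.67 for AGRP, from -0.32 to 0.05 (A_70_P001472) and -0.32 to 0.13 (A_70_P001471) for GAL, and from -0.16 to 0.74 (A_70_P056812), -0.04 to 0.73 (A_70_P056811) and 0.18 to 0.65 (A_70_P039556) for LEPR. Replicate numbers occur in both groups, but the same-number correlations of deviations were 0.121, 0.088 and 0.107, not all over 0.1, so the numbers were not taken as pairs. Each hypoxia array correlated best with the control of its own number, a hint from the data and not the design. With the replicate block, NPY probe A_70_P039277 gave 0.05 and the GAL probes 0.05 and 0.13, and 0 probes were called. The LEPR probes, dim on control replicate 1, gave no value where all 7 arrays had to be well above background. With normexp background correction the control-slide differences of the 3 LEPR probes turned negative, to -0.19 (A_70_P056812), -0.14 (A_70_P056811) and -0.29 (A_70_P039556). Of 36 such differences 35 moved by less than the SD over controls, a wide bound for the first pair, whose SDs of 1.20 and 1.06 include control replicate 1.

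The count of all probes past the adjusted threshold, 2, was 0 with quantile normalization and with no filter on dim probes, 10 with normexp and also with the deposited values, 25 over probes well above background on all arrays, 232 against slide 2, 4 against slide 3, 57 with a trended and robust prior, and 0 to 6 with an array left out (6 without control replicate 2). None of these calls was a probe of NPY, AGRP, GAL or LEPR, and the cause of the differing counts was not tested. With the deposited values 660 of 981 probes at an unadjusted p under 0.05 were higher, against 1112 of 1990, while the balance turned to 932 higher and 1069 lower with median scaling and to 914 and 1032 with quantile normalization. Slide as a random block, with a correlation within slides of -0.032, left the count at 2.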
